A study of Bos taurus with 14 samples.

Results

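SPP1 (osteopontin) and 9 further genes of the matricellular and remodelling machinery of the extracellular matrix were examined in bovine back muscle. The genes are POSTN, TNC, THBS1, THBS4, SPARC, MMP2, TIMP1, TIMP2 and LOX. SPP1 was chosen by its counts, as the gene that differed most between animals whose sample titles end in different letters, and the other members were added by name to ask whether they follow it. Members were found by their symbol in the deposited gene table. Of the 10 names, 9 stood on 1 row each among 18078 gene rows, and TIMP1 was not analysed here. All 9 passed the filter on low counts.

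RNA was sequenced from the longissimus dorsi, the long muscle along the spine, of 14 female cattle slaughtered at postnatal day 485. The control group (n = 7) came from dams fed 100% of their requirement from gestational day 158 until calving, and the restricted group (n = 7) from dams fed less over the same days. The restricted ration is given as 70% in the description of the design and as 50% in the protocol of the samples, so no percentage is attached to it here. All offspring were raised alike after birth, with ad libitum feed from day 301, and no genotype, breed, sire or shared dam is named in the labels. Sample titles also begin with R (n = 3) or Y (n = 11) and end with A (n = 9, of which 5 were controls) or B (n = 5, of which 2 were controls). The labels do not give the meaning of these letters.

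Matricellular proteins are secreted into the matrix but act mainly as signals rather than as load-bearing fibres: they bind integrins, syndecans, collagens and growth factors. In skeletal muscle they are made largely by interstitial fibroblasts, macrophages and, during repair, by myogenic cells, and their levels are known to be high in developing, injured and fibrotic muscle and low in resting adult muscle. Remodelling enzymes act on the same matrix, with MMP2 cutting collagens, TIMP2 restraining and also helping to activate MMP2, and LOX cross-linking collagen and elastin.

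Each library held between 13631018 and 17325779 counts. Of the 14 libraries, restricted 7, restricted 4 and control 7 lay farthest from the centre on the first 2 principal components of log2 CPM, at distances of 36.3, 34.6 and 25.3 against 6.52 to 19.6 for the rest. Values without them are given where they matter. The tissue label was matched by its markers: the skeletal actin ACTA1 averaged 44041 CPM (scaled counts per library total, the usual abundance unit of sequencing) and the fast myosin heavy chain MYH1 averaged 55840 CPM. In bulk tissue, fewer cells of a type and less RNA per cell cannot be told apart.

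Levels between genes were compared per length, as CPM per kilobase of the deposited gene length (RPKM). SPARC, which binds collagen and guides its assembly, had the highest level by far, 94.6 ± 24.5 RPKM (SD, n = 14 here and below). TIMP2 at 16.7 ± 3.16 and THBS4 at 15.7 ± 4.04 RPKM followed, and these neighbours differed by less than their spread. MMP2 at 6.35 ± 1.59 and THBS1 at 3.56 ± 1.08 RPKM lay apart from each other and from the rest. The next neighbours, POSTN at 1.01 ± 0.462 and SPP1 at 0.953 ± 1.25 RPKM, could not be ordered, and the same held for LOX at 0.425 ± 0.245 and TNC at 0.3745 ± 0.240 RPKM. SPP1 was the only one of the 9 whose SD exceeded its mean.

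SPP1 (ENSBTAG00000005260) encodes a phosphorylated, integrin-binding glycoprotein of bone, macrophages and regenerating muscle. In the control animals 1 to 7 its reads numbered 3, 114, 26, 46, 3, 15 and 10. In the restricted animals 1 to 7 they numbered 105, 121, 7, 2, 4, 7 and 16. Control 2, restricted 1 and restricted 2 each held over 100 reads, while 6 animals held 7 reads or fewer. Scaled levels ran from 0.210 to 6.65 CPM with a median of 0.893 in controls, and from 0.138 to 7.80 CPM with a median of 0.476 in restricted offspring. The diet groups therefore overlapped over nearly their whole range. Its SD of log2 CPM over the animals was 1.71, above that of 99.8% of the 12187 genes tested, whose median SD was 0.23. With 2 to 16 reads in 9 animals, counting error is a large part of each low value.

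POSTN (periostin, ENSBTAG00000012409) supports collagen cross-linking and is a product of activated fibroblasts. It ran from 1.61 to 6.65 CPM in controls (median 3.21) and from 2.07 to 6.34 CPM in restricted offspring (median 3.44), on 23 to 114 reads. Control 2, restricted 1 and restricted 7 were the high animals, and control 1 and control 5 the low ones. TNC (tenascin-C, ENSBTAG00000000575), an anti-adhesive glycoprotein of tendon junctions and healing tissue, ran from 1.81 to 7.06 CPM in controls (median 2.26) and from 1.43 to 5.90 CPM in restricted offspring (median 1.81). Control 2 at 7.06, control 7 at 6.35 and restricted 1 at 5.90 CPM stood above the other animals, which all lay at or below 3.74 CPM. The SDs of log2 CPM of POSTN and TNC, 0.62 and 0.75, were above those of 94.7% and 97.3% of genes.

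The thrombospondins bind calcium, collagen and cell-surface receptors, THBS1 being an activator of latent TGF-beta and THBS4 a component of tendon and muscle matrix. THBS1 (ENSBTAG00000002006) ran from 11.2 to 31.8 CPM in controls (median 18.8) and from 14.7 to 24.0 CPM in restricted offspring (median 17.2). Its highest animals were control 2 and control 4, so that the range was wider in controls. THBS4 (ENSBTAG00000012866) ran from 36.1 to 78.8 CPM in controls (median 67.9) and from 45.8 to 97.3 CPM in restricted offspring (median 55.5). Restricted 7 was the highest of all animals in THBS4 and control 5 the lowest.

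SPARC (ENSBTAG00000014835) ran from 146 to 280 CPM in controls (median 214) and from 173 to 393 CPM in restricted offspring (median 213). Control 5 was again the lowest and restricted 7 the highest animal. MMP2 (gelatinase A, ENSBTAG00000019267) ran from 14.5 to 25.4 CPM in controls (median 22.2) and from 13.2 to 31.2 CPM in restricted offspring (median 21.0), with restricted 7 highest once more. TIMP2 (ENSBTAG00000010899) was the steadiest member: it ran from 19.8 to 35.6 CPM in controls (median 24.6) and from 18.8 to 33.1 CPM in restricted offspring (median 26.3), and its SD of 0.27 log2 was above that of 60.3% of genes. LOX (lysyl oxidase, ENSBTAG00000012994) was the scarcest by reads, 5 to 36 per animal, and ran from 0.595 to 2.26 CPM in controls (median 1.13) and from 0.324 to 1.53 CPM in restricted offspring (median 0.628). Across the 9 members the median SD was 0.42 log2, against 0.23 over all genes tested.

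**Figure D1:**
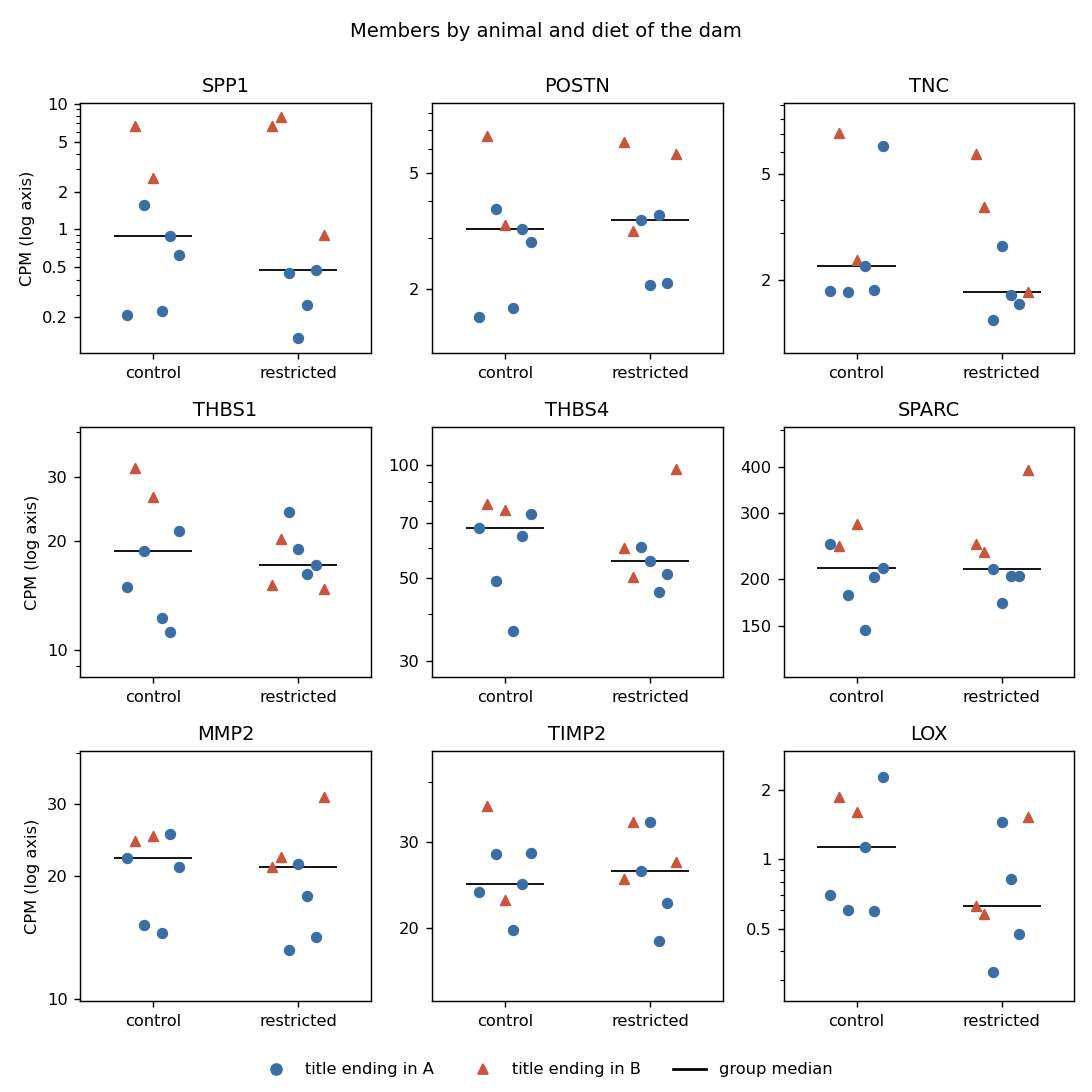
CPM of each of the 9 members (log axis) in the 7 control and 7 restricted animals; each point is 1 animal, its shape and colour give the last title letter, and lines mark group medians. The diet groups overlap in every panel, and the SPP1 axis spans 0.138 to 7.80 CPM, the widest of the 9.

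The first comparison asked whether the members differed in adult offspring by the feeding of the dam. No difference was called by edgeR's quasi-likelihood test: 0 of 9 members passed the adjusted threshold of 0.05, the adjusted p of each being 0.999971, and 0 of 9 had an unadjusted p under 0.05. Over all 12187 genes 0% passed the adjusted threshold, and 4.25% (518 genes) had an unadjusted p under 0.05. With DESeq2 1 gene passed, MTSS1L, which is no member, and with limma voom 0. The median log2 ratio, restricted over control, was -0.07 over the members and -0.0008 over all genes tested.

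The mean SPP1 level was 1.82 ± 2.28 CPM (SD, n = 7) in the control and 2.37 ± 3.32 CPM (SD, n = 7) in the restricted group. The fitted ratio was 1.28, with 95% bounds of 0.379 and 4.33. The interval spans both a lower and a several-fold higher level, so the data set only wide bounds on a diet difference of this gene. The direction also rested on single animals. The log2 ratio of 0.36 was 1.18 without control 2, -0.15 without restricted 1 and -0.32 without restricted 2, and with the last title letter in the model it was -0.41. None of these fits passed the threshold.

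For the other matricellular members the intervals were narrower. POSTN averaged 3.31 ± 1.68 CPM in the control group against 3.78 ± 1.67 CPM in the restricted group, the ratio being 1.14 (95% interval 0.724 to 1.79). TNC averaged 3.36 ± 2.30 and 2.71 ± 1.62 CPM, a ratio of 0.804 (0.450 to 1.43), and its log2 ratio of -0.31 became 0.01 without the 3 outlying libraries. THBS1 had a ratio of 0.923 (0.685 to 1.25) and THBS4 one of 0.942 (0.726 to 1.22). SPARC averaged 217 ± 45.4 and 239 ± 72.1 CPM, a ratio of 1.10 (0.862 to 1.41). Without restricted 7 the log2 ratio of SPARC moved from 0.14 to -0.02. For THBS1, THBS4 and SPARC the intervals leave out any ratio above 1.41 or below 0.685.

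Among the enzymes and their inhibitor, MMP2 had a ratio of 0.955 (95% interval 0.735 to 1.24) and TIMP2 one of 1.01 (0.830 to 1.24). LOX lay farthest below 1: its mean was 1.25 ± 0.670 CPM (SD, n = 7) in the control and 0.829 ± 0.476 CPM (SD, n = 7) in the restricted group. The ratio was 0.665, with 95% bounds of 0.379 and 1.16. Of the 7 restricted animals, 2 lay above the control median. Without control 7, restricted 4 and restricted 7, the log2 ratio of LOX was -0.94, with a 95% interval of -1.73 to -0.14 that leaves out 0, so that LOX was then under an unadjusted p of 0.05 (edgeR, adjusted p = 0.942). In that setting 612 of 12270 genes had an unadjusted p under 0.05. The animals left out held the highest LOX level of the controls (control 7, 2.26 CPM) and the 2 highest of the restricted group (restricted 7, 1.53 CPM, and restricted 4, 1.45 CPM). With all 14 animals, the interval of every member included a ratio of 1.

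**Figure D2:**
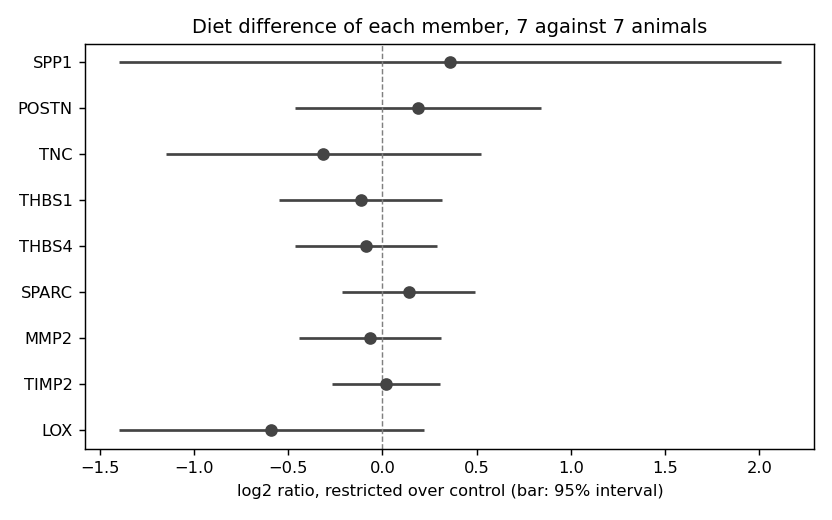
Log2 ratio of each member, restricted over control, from edgeR's fit of 7 against 7 animals, with 95% intervals as bars and a dashed line at no difference. Every bar crosses the line; the SPP1 bar, from -1.40 to 2.12, is the widest, and the LOX point lies lowest at -0.59.

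The letter that ends the title is the contrast on which SPP1 was selected, so the values by letter are a description and were not tested. The 5 animals with B held 6.65 (control 2), 2.55 (control 4), 6.59 (restricted 1), 7.80 (restricted 2) and 0.905 CPM (restricted 7) of SPP1. The 9 animals with A held 0.138 to 1.57 CPM, with a median of 0.454. The letters overlapped, since control 3 (A) at 1.57 CPM stood above restricted 7 (B). The fitted ratio of B over A was 8.73, the highest of all 12187 genes tested. Within each letter the diet groups again overlapped, SPP1 running from 0.210 to 1.57 CPM in 5 controls and from 0.138 to 0.476 CPM in 4 restricted animals with A.

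The other members were also higher on average in B. POSTN had a ratio of 1.85, with 5.05 ± 1.68 CPM in B (SD, n = 5) and 2.71 ± 0.836 CPM in A (SD, n = 9), and TNC a ratio of 1.73. SPARC followed at 1.41, MMP2 at 1.35, LOX at 1.35, THBS4 at 1.29, THBS1 at 1.26 and TIMP2 at 1.15. All 9 of 9 members thus had a ratio above 1, as did 49.3% of genes, and 3 of 9 had a ratio of at least 1.5, as did 1.98% of genes. All 5 B animals lay above the A median in SPP1, POSTN, SPARC and MMP2, 4 of 9 members against 7.25% of genes. No member had every B animal above every A animal (0 of 9, against 0.0656% of genes). Because this contrast chose SPP1, nothing is read from these counts. The SPARC log2 ratio was 0.50 with restricted 7 and 0.35 without it, and other members also leaned on single animals. Leaving out 1 animal took the log2 ratio of THBS1 from 0.33 to as low as 0.16 and that of LOX from 0.43 to 0.24. That of TIMP2 went from 0.20 to as low as 0.11 and that of TNC from 0.79 to 0.52. By the first title letter, SPP1 spanned 0.210 to 6.65 CPM in the 3 R animals and 0.138 to 7.80 CPM in the 11 Y animals.

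Summed markers of several other cell types had higher medians in B as well. The summed level of 10 fibroblast genes, among them the collagen COL3A1 and the proteoglycan DCN, ran from 413 to 829 CPM in A (median 548) and from 719 to 1182 CPM in B (median 790). All 10 of 10 fibroblast genes had a ratio of B over A above 1, as did 49.3% of all genes. The sum of 14 macrophage genes ran from 15.1 to 33.1 CPM in A (median 20.2) and from 21.0 to 43.2 CPM in B (median 31.0), although MARCO was at 0 to 1 read, TREM2 at 0 to 5 reads and TYROBP at 2 to 18 reads per animal. The sum of 7 T and NK cell genes ran from 1.82 to 6.79 CPM in A and from 4.39 to 9.05 CPM in B. The sum of 6 adipocyte genes ran from 18.4 to 166 CPM in A and from 85.9 to 182 CPM in B. These sums overlapped between the letters. The sum of 6 tendon genes ran from 13.1 to 37.2 CPM in A and from 19.9 to 57.0 CPM in B, but the defining tendon genes SCX, TNMD and MKX did not exceed 13 reads in any animal. The 5 neutrophil genes were at 0 to 12 reads. The 7 satellite cell and regenerating fibre genes summed to 91.3 to 199 CPM in A and 108 to 259 CPM in B. Of these 7 genes, 5 had a ratio of B over A above 1, while the satellite cell genes PAX7 and MYF5 had ratios of 0.923 and 0.937. Sums over 6 endothelial genes (152 to 219 CPM in A, 158 to 260 CPM in B) and over 6 smooth muscle and pericyte genes (167 to 250 CPM in A, 191 to 282 CPM in B) covered similar ranges. A ratio of B over A above 1 was also found for 10 of 11 tested macrophage genes and 3 of 3 tested T and NK cell genes. It was found for 6 of 6 adipocyte, 6 of 6 smooth muscle and pericyte and 5 of 6 endothelial genes. Of 7 muscle fibre genes, 0 had a ratio of B over A above 1, where 49.3% of all genes did. The part of these cell types in the members' levels was not tested.

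The question of whether the other members follow SPP1 from animal to animal was put to Pearson's r of log2 CPM over the 14 animals, with a two-sided permutation p of 100000 resamples for each gene. None passed after adjustment: 0 of 8 members met the threshold over 12186 genes, and so did 0% of all genes. With an unadjusted permutation p under 0.05 and a positive r there were 2 of 8 members, POSTN and TNC, against 3.23% of all genes. With the letter means removed, 0 of 8 members had an unadjusted permutation p under 0.05, against 896 of 12186 genes with an r of either sign. Among the A animals alone it was 0 of 8, against 611 of 12186 genes. With 8 members, a count of 0 cannot be told apart from these shares. Over all 14 animals without that removal, all 8 members had a positive r, as did 49.7% of all genes. Their median r was 0.409, against -0.003 over all genes.

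POSTN followed SPP1 most closely (r = 0.703, permutation p = 0.00521, adjusted p = 0.695; rho = 0.666, permutation p = 0.0114, adjusted 0.728). Of all genes 32 had a higher r, which places POSTN at the 99.7th percentile. Without control 2 and restricted 2, the animals farthest from the median SPP1 level, r was 0.745, and leaving out any 1 animal gave 0.627 to 0.807. Control 1 and control 5 were near the bottom of both genes, and control 2 and restricted 1 near the top of both, while restricted 2, highest in SPP1, had only 3.16 CPM of POSTN. Among the 9 A animals alone r was 0.657 (permutation p = 0.0556, adjusted 0.954), with restricted 5 high in POSTN at 3.59 CPM and low in SPP1 at 0.252 CPM, and after the mean of each letter was removed from all 14 animals it was 0.333 (permutation p = 0.278, adjusted 0.832).

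TNC came next (r = 0.608, permutation p = 0.0206, adjusted p = 0.727), but its rank correlation was lower (rho = 0.437, permutation p = 0.121, adjusted 0.851). Without the 2 animals farthest in SPP1 the r of TNC was 0.429, and among the 9 A animals it was -0.007. With letter means removed from all 14 animals it was 0.414 (permutation p = 0.184, adjusted 0.786), where that of POSTN was 0.333. Leaving out 1 animal gave 0.494 (control 2) to 0.746 (control 7), and without the 2 animals farthest in TNC r was 0.678. Control 7 carried 6.35 CPM of TNC with 0.629 CPM of SPP1. Without control 7, restricted 4 and restricted 7 the r of TNC was 0.828 (permutation p = 0.00167, adjusted 0.438). In that setting 3 of 8 members had an unadjusted permutation p under 0.05, against 928 of 12186 genes with an r of either sign.

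The remaining 6 members had r values of 0.476 (TIMP2), 0.411 (THBS1), 0.408 (SPARC), 0.355 (MMP2), 0.269 (THBS4) and 0.032 (LOX), with unadjusted permutation p from 0.0864 to 0.912 and adjusted p from 0.781 to 0.988. Their rho ran from 0.0286 for LOX to 0.464 for SPARC. Without the 2 farthest animals TIMP2 was at 0.101 and THBS1 at 0.143, whereas SPARC was at 0.420. Signs turned for 4 members when the letter was taken out: with letter means removed, r was -0.446 for SPARC, -0.331 for MMP2, -0.374 for LOX and -0.261 for THBS4, and it was 0.328 for TIMP2 and 0.214 for THBS1. The median r over the 8 members was then -0.023, and it was 0.080 among the A animals. Of the 8, POSTN alone had an r above 0.5 among the A animals. Without the 3 outlying libraries the r of TIMP2 was 0.757 (permutation p = 0.00691, adjusted 0.483), a setting in which 928 of 12186 genes had an unadjusted permutation p under 0.05.

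**Figure D3:**
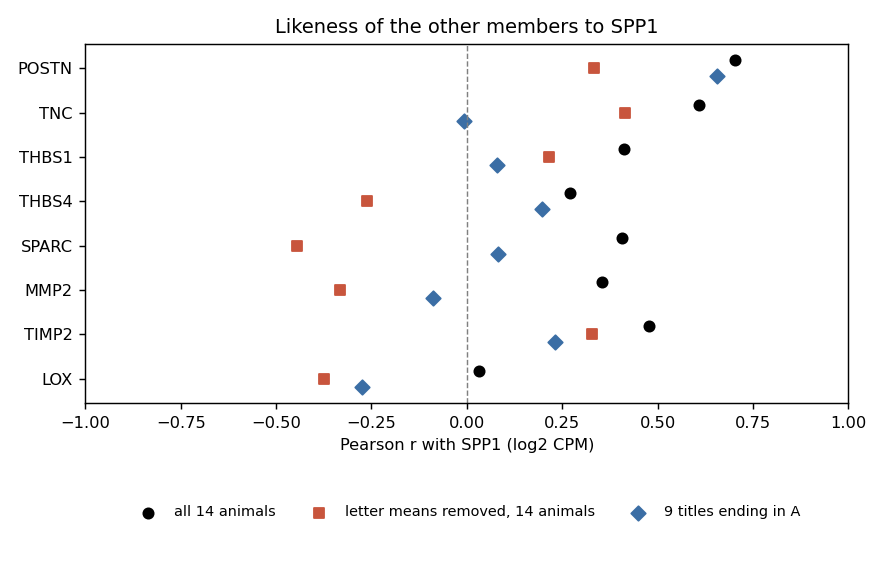
Pearson r of log2 CPM between SPP1 and each other member over all 14 animals (circles), over 14 animals after the mean of each last title letter was removed (squares), and over the 9 animals with titles ending in A (diamonds). All circles lie above 0; with letter means removed SPARC, MMP2, THBS4 and LOX lie below 0, and in the A animals POSTN is at 0.657.

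**Figure D4:**
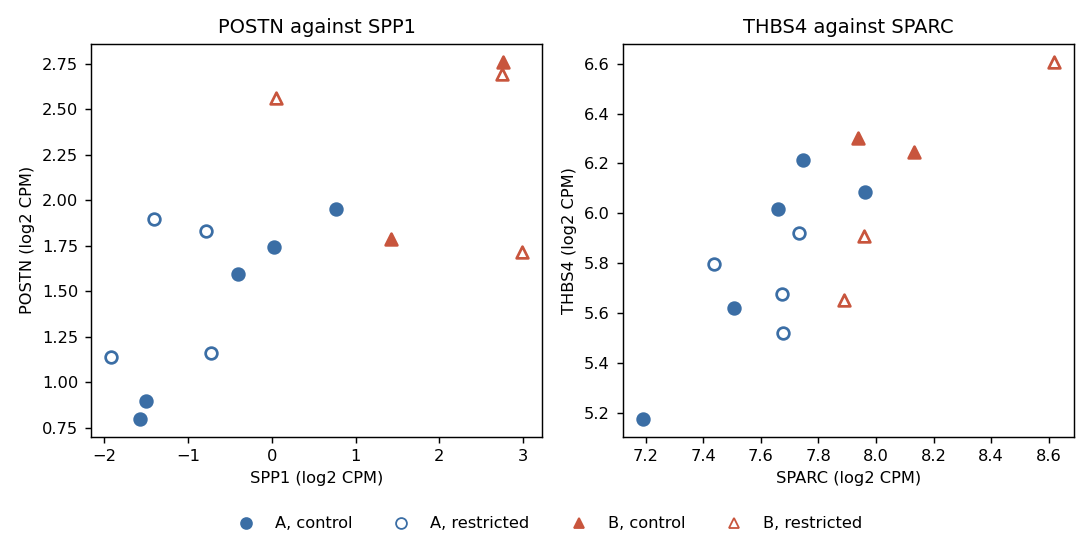
Log2 CPM of POSTN against SPP1 (left) and of THBS4 against SPARC (right), 1 point per animal, with shape and colour for the last title letter and filled points for controls. In the left panel control 1 and control 5 lie at the lower left and control 2 and restricted 1 at the upper right, and in the right panel restricted 7 lies at the upper right and control 5 at the lower left.

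The pairs of THBS4, SPARC and MMP2, together with the pair of SPP1 and POSTN, had the highest r values among the members. All 36 pairs had a positive r over 14 animals, from 0.014 to 0.827 with a median of 0.399. In 8 pairs the unadjusted permutation p was under 0.05 and in 0 after adjustment over all genes. Of the 28 pairs without SPP1, 6 had a positive r with an unadjusted permutation p under 0.05, against 3.56% of the pairs of these members with all genes.

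THBS4 and SPARC were the closest pair (r = 0.827, permutation p = 3e-04, adjusted 0.223; rho = 0.732, permutation p = 0.0041, adjusted 0.481). Without control 5 and restricted 7, the farthest animals in both genes, r was 0.577. It was 0.785 with letter means removed and 0.779 among the 9 A animals, so its sign and size changed little with the letter. THBS4 and MMP2 (r = 0.741, permutation p = 0.00274, adjusted 0.371; rho = 0.670) had an r of 0.575 without those animals and of 0.643 with letter means removed. Leaving out instead the 2 animals farthest in MMP2 gave 0.877. SPARC and MMP2 (r = 0.703, permutation p = 0.00381, adjusted 0.499; rho = 0.547) had 0.472 and 0.481, and 0.823 without the 2 farthest in MMP2. Restricted 7, highest of 14 in all of these genes, was also the library farthest from the centre on the principal components. It had the highest fibroblast (1182 CPM), macrophage (43.2 CPM), T and NK cell (9.05 CPM) and adipocyte (182 CPM) sums. Its neutrophil, tendon, endothelial, smooth muscle and pericyte, satellite cell and muscle fibre sums were not the highest. The part of these in the 3 pairs was not tested. Without restricted 7 the r of the 3 pairs was 0.747, 0.648 and 0.574, where that of SPP1 and POSTN was 0.767.

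The other pairs with an unadjusted permutation p under 0.05 were weaker. POSTN and SPARC had an r of 0.565 (rho = 0.376), which was 0.739 without the 2 animals farthest in POSTN, 0.288 without the 2 farthest in SPARC and 0.150 with letter means removed. MMP2 and LOX had 0.552 (rho = 0.459), and 0.297 without the 2 farthest in MMP2 but 0.5725 without the 2 farthest in LOX. THBS1 and TIMP2 had 0.535 (rho = 0.499), and 0.395 or 0.379 without the 2 farthest in THBS1 or in TIMP2. The lowest r of all pairs, 0.014, was that of THBS1 and MMP2.

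**Figure D5:**
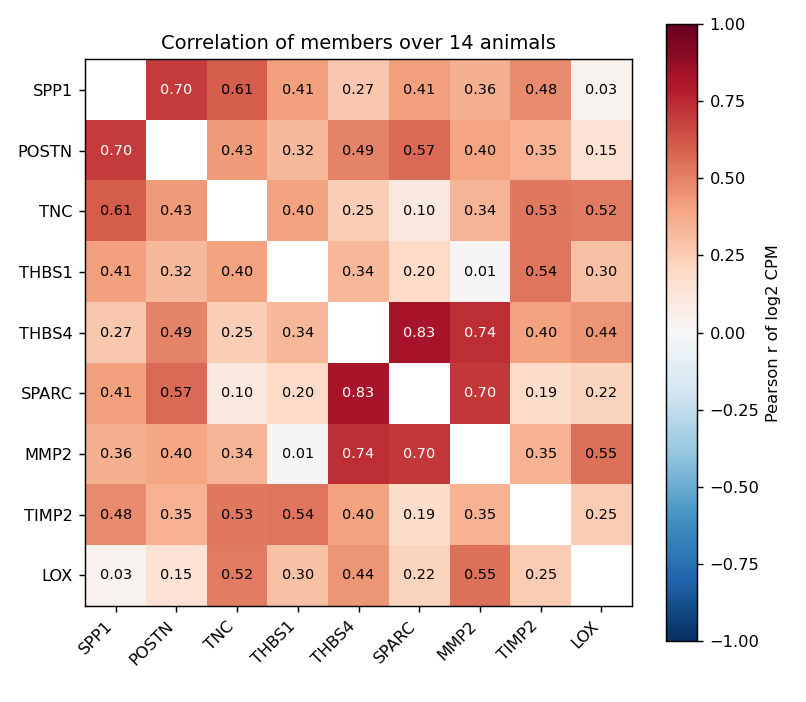
Pearson r of log2 CPM over 14 animals for every pair of the 9 members, printed in each cell and coloured from -1 to 1. THBS4, SPARC and MMP2 form a block of 0.703 to 0.827, SPP1 and POSTN have 0.703, and LOX and SPP1 have an r of 0.032.

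The genes whose pattern was most like that of SPP1, among those with a mean of at least 1 CPM, were CAPG, an actin-capping protein abundant in macrophages (r = 0.836, permutation p = 0.00026, adjusted 0.451; rho = 0.807; 0.781 without the 2 farthest animals), the adaptor GIPC1 (0.834), ANKRD39 (0.825), the lysosomal enzyme GUSB (0.796) and the cholesterol exporter ABCG1 (0.775). Without the 2 farthest animals GIPC1 was at 0.716, ANKRD39 at 0.734, GUSB at 0.637 and ABCG1 at 0.659. This ranking used all 14 animals with letter means kept. Because the last title letter chose SPP1, it cannot separate genes that follow SPP1 within a letter from genes that differ by letter. No gene passed the adjusted threshold for SPP1, the smallest adjusted p over all genes being 0.244. For POSTN the closest were CMTM3 (0.898), DOCK2, a guanine nucleotide exchange factor of blood cells (0.847), and TMSB10, a thymosin (0.839). Without the 2 animals farthest in POSTN these were 0.874, 0.843 and 0.864. For TNC the closest were SFRP4, a secreted Wnt antagonist (0.818), FBLN1, a fibulin of the matrix (0.778), and THY1, a surface marker of fibroblasts (0.771). Without the 2 animals farthest in TNC these were 0.660, 0.597 and 0.613.

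Among the genes closest to SPARC were CASP8 (0.928) and the collagen COL3A1 (0.875), and for THBS4 they were PCDHGC3 (0.912), CASP8 (0.902) and PCDH18 (0.889). CASP8, a caspase, thus stood on both lists, at an adjusted permutation p of 0.0609 for SPARC and 0.0812 for THBS4. MMP2 was most like ADAMTS2, the procollagen N-proteinase (0.901), the collagen VI chain COL6A2 (0.877) and the collagen receptor MRC2 (0.876). TIMP2 was most like PCOLCE2, an enhancer of procollagen processing (0.831), FBLN1 (0.819) and USP39 (0.804). THBS1 was most like CTNNAL1 (0.809), RND3 (0.808) and SLC20A1 (0.802), and LOX was most like PIK3CB (0.896), PRR22 (0.870) and ICAM1 (0.820). None of these passed the adjusted threshold. Without the 2 animals farthest in the member, their r values ran from 0.608 (RND3 with THBS1) to 0.945 (PCDH18 with THBS4). With SPARC, CASP8 was then at 0.771 and COL3A1 at 0.681.

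The fibroblast markers varied with the members as a list. Their median r over 10 genes was 0.551 with SPP1, 0.615 with POSTN, 0.575 with TNC, 0.677 with THBS4, 0.581 with SPARC, 0.633 with MMP2, 0.568 with TIMP2, 0.49993 with LOX and 0.369 with THBS1, where the median over all genes was between -0.011 and 0.003. With letter means removed, the median for SPP1 was 0.100. The 2 tested tendon genes had higher medians than the fibroblast list with TNC (0.722), LOX (0.769), TIMP2 (0.590) and THBS1 (0.407). The same held for 3 T and NK cell genes with POSTN (0.667) and 6 adipocyte genes with THBS1 (0.452). With SPP1, the T and NK cell and satellite cell lists had medians of 0.436 and 0.405, or 0.263 and -0.006 with letter means removed. The macrophage markers had a median r of 0.199 with SPP1 over 11 tested genes, against 0.544 with POSTN, 0.536 with MMP2 and -0.028 with THBS1. CSF1R, the receptor that maintains macrophages, had an r of 0.643 with SPP1, and MRC1, the most abundant gene of the list, 0.197. With letter means removed these were 0.331 and -0.007, and the median of the macrophage list with SPP1 was 0.040. The muscle fibre markers had a median r of -0.231 with SPP1 and of -0.538 with LOX. These lists share libraries and scaling with the members, and their part in the members' variation was not tested.

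The wider pathway was read from lists of genes around the members. Of 24 tested genes for other matricellular proteins, 0 passed the adjusted threshold for diet by edgeR. At an unadjusted p under 0.05, 0 were higher and 1 lower, against 4.25% of all genes in either direction. The 1 gene was FBLN2, named after its value was seen (ratio 0.810, 95% interval 0.671 to 0.977). The most abundant were SPARCL1, a relative of SPARC (127 ± 21.3 CPM against 120 ± 21.0 CPM, control and restricted), and CCN1, an integrin-binding early response protein (103 ± 50.7 and 75.3 ± 37.8 CPM; ratio 0.730, 95% interval 0.451 to 1.18). The median log2 ratio of the list was -0.16. With SPP1, 18 of 24 had a positive r, against 49.7% of all genes (median 0.183, or -0.071 with letter means removed), and 4 of 24 had an unadjusted permutation p under 0.05, against 3.23% of all genes with a positive r: FBLN1 (0.737), TGFBI (0.633), HMCN1 (0.616) and FBLN2 (0.539), also named after their values were seen. With letter means removed their r values were 0.468, 0.391, 0.363 and 0.494.

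Of 22 tested receptors of matricellular proteins, 0 passed the adjusted threshold for diet by edgeR, with 2 higher and 1 lower at an unadjusted p under 0.05 (4.25% of all genes in either direction), named after their values were seen. CD44, a receptor of osteopontin and hyaluronan, had 8.82 ± 1.99 CPM (SD, n = 7) in the control and 12.2 ± 3.40 CPM (SD, n = 7) in the restricted group, a ratio of 1.38 (95% interval 1.05 to 1.83; edgeR, adjusted p = 0.999971). SDC2, a syndecan, had a ratio of 1.18 (1.05 to 1.34) and the integrin chain ITGA8 one of 0.587 (0.376 to 0.916). The most abundant receptors, CD36, which binds thrombospondins and fatty acids, and the dystroglycan gene DAG1, had ratios of 1.01 and 1.02. With SPP1, 12 of 22 receptors had a positive r, against 49.7% of all genes (median 0.121, or -0.096 with letter means removed). STAB1 (0.709), a scavenger receptor that takes up SPARC, ANXA2 (0.622) and ITGB3 (0.547) had an unadjusted permutation p under 0.05, against 3.23% of all genes with a positive r, again named after their values were seen. With letter means removed their r values were 0.408, 0.119 and 0.511. CD44 itself had an r of 0.362 with SPP1.

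The enzyme lists showed no member past the adjusted threshold for diet by edgeR and 0 at an unadjusted p under 0.05 in either direction, for 18 metalloproteinases, 14 protease inhibitors and other proteases and 17 genes of cross-linking and collagen maturation. Over all genes, 4.25% had such an unadjusted p. The most abundant were ADAM10 and ADAMTS1 (ratios 1.02 and 0.992), the proteases HTRA1 and CTSB (1.06 and 0.994), and the transglutaminase TGM2 and the prolyl hydroxylase P4HA1 (1.18 and 1.12). The cross-linking list lay closest to SPP1, with 16 of 17 genes at a positive r and a median of 0.383, or 0.144 with letter means removed, where 49.7% of all genes were positive. Its 5 genes with an unadjusted permutation p under 0.05 were FKBP10 (0.645), LOXL2 (0.615), LOXL1 (0.605), PCOLCE (0.598) and LOXL3 (0.584), named after their values were seen, against 3.23% of all genes. With letter means removed the r of LOXL2 was -0.065, that of LOXL1 0.299 and that of LOXL3 0.568, with FKBP10 at 0.240 and PCOLCE at 0.367. So, before this removal, 3 LOX relatives had r values above 0.5 with SPP1, where LOX had 0.032. The differences between these r values were not tested.

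Of 18 metalloproteinases, 14 had a positive r with SPP1, against 49.7% of all genes (median 0.218, or 0.005 with letter means removed), and MMP19 (0.677) and MMP16 (0.608) had an unadjusted permutation p under 0.05, against 3.23% of all genes, named after their values were seen. With letter means removed the r of MMP19 was 0.103 and that of MMP16 0.233. Among 14 inhibitors and other proteases the median r was 0.229, or -0.009 with letter means removed. Of these, 1 had an unadjusted permutation p under 0.05, against 3.23% of all genes with a positive r. It was RECK, a membrane inhibitor of metalloproteinases (r = 0.612, permutation p = 0.0230), named after its value was seen. Its r was 0.532 with letter means removed. Of 19 TGF-beta pathway genes, 0 passed the adjusted threshold for diet by edgeR, and 1 was higher (TGFB2, ratio 1.27) and 3 lower (LTBP2 0.742, LTBP3 0.794, ENG 0.840) at an unadjusted p under 0.05, named after their values were seen, where 4.25% of all genes were in either direction. Its most abundant genes SMAD4 and LTBP4 had ratios of 0.920 and 0.916. The median r of the list with SPP1 was 0.140, or 0.065 with letter means removed. Of 6 genes for the phosphorylation and mineral handling of SPP1, 0 had an unadjusted p under 0.05 for diet, against 4.25% of all genes. The kinase FAM20C, which phosphorylates osteopontin, had a ratio of 0.957 (95% interval 0.782 to 1.17) and an r of 0.316 with SPP1. The phosphatase ACP5, which can remove these phosphates, had an r of 0.576 (permutation p = 0.0337), and 0.766 with letter means removed, named after its value was seen. It was the 1 of 6 genes of this list with an unadjusted permutation p under 0.05, against 3.23% of all genes with a positive r. The median r of the list with SPP1 was 0.131, or -0.032 with letter means removed.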

How the data were processed

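The authors deposited whole read counts for each gene, without normalization. Per the submitters' processing notes, FastQC, HISAT2, featureCounts, edgeR and the build ARS-UCD1.2 were used; the sources used here do not give versions, annotation release or strand setting, so reads of antisense partners may be mixed. Besides the counts, the deposited gene length was used for RPKM. The reference table, of the assembly ARS-UCD2.0, matched 0 identifiers, so no coordinates are given.

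The members and lists were chosen with earlier results of these data known. Counts were fitted with edgeR 4.0.16 in R 4.3.3: filterByExpr (minimum count 10, minimum total count 15) kept 12187 genes, scaling was by TMM, and diet was tested by the quasi-likelihood F test without covariates, adjusted by Benjamini-Hochberg over all genes. CPM and log2 CPM (prior count 2) used the same scaling. Correlations used 100000 permutations of the seed gene's values (smallest possible p 1e-05), each member being the seed once, adjusted over 12186 genes per seed; the letter-adjusted p permuted within letters. A pair was reported with the first gene named as the seed. Each sample is 1 animal, and replicate numbers are names only. Named genes were all members, the 2 most abundant tested genes of each pathway list and of the marker lists in part, and the 5 (SPP1) or 3 (others) genes with a symbol, a mean of at least 1 CPM and the highest r; others are marked in the text, and 1 gene that the rule names is not reported here. The fit and the correlations were tested on simulated data. Alternatives were relative log expression or library size scaling, no filter, DESeq2 1.42.0, limma 3.58.1 voom, title letters as covariates, subsets of animals, Spearman's rho and a prior count of 0.5.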

Additional observations from a re-analysis of the deposited data

Results flagged for a closer look

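Of 18 member and diet groups examined for a sample far from the rest (a gap over range above 0.568 for 7 animals, which chance gives in about 1 of 20 groups), 1 stood out. The THBS4 level of restricted 7 was 6.61 log2 CPM, highest of the 7 restricted animals, where the nearest animal was at 5.92, a gap of 0.631 of the group's range.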

How the results depend on the processing

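No alternative brought a member past the adjusted threshold for diet or for its correlation with SPP1. Genes past the threshold for diet numbered 0, except 1 with DESeq2 (MTSS1L) and 1, a gene with no symbol, with only titles ending in A; SPP1 fell below the filter in the latter, which gives it no value. The SPP1 log2 ratio was -0.12 with limma voom and -0.41 with the last letter as covariate, and -0.32 to 1.18 leaving out 1 animal. Directions also turned elsewhere. TNC was 0.0093 without the 3 outlying libraries. THBS1 was 0.0011 with voom, 0.28 with only A, 0.041 with only Y and -0.22 to 0.045 leaving out 1 animal. THBS4 was 0.0037 with only Y, and SPARC -0.00055 with only A and -0.025 to 0.21 leaving out 1. MMP2 ranged from -0.21 to 0.015, and TIMP2 from -0.040 to 0.11, leaving out 1; TIMP2 was -0.041 with library size scaling, -0.0080 with the last letter and -0.039 without the 3 libraries. Of r with SPP1, letter means removed gave -0.261 (THBS4), -0.446 (SPARC), -0.331 (MMP2) and -0.374 (LOX), and only A gave -0.0074 (TNC), -0.0900 (MMP2) and -0.275 (LOX). LOX was -0.050 without the 2 farthest animals and -0.154 to 0.156 leaving out 1. Library size scaling moved the median r of all genes with SPP1 to 0.133 and that of the members to 0.460. The cause of these changes was not tested. No paired analysis was possible because replicate numbers are names only. For the 6 pairs without SPP1 at an unadjusted p under 0.05, the settings that left out 1 animal, removed letter means or used only A were chosen after seeing the data, and r stayed positive in these. Without the 2 farthest animals in 1 gene, other pairs turned: SPARC and TIMP2 to -0.108, POSTN and LOX to -0.0915, TNC and THBS4 to -0.0779, TNC and THBS1 to -0.0068, and LOX (farthest in LOX) with SPP1, POSTN, THBS1 and TIMP2 to -0.138, -0.0113, -0.0258 and -0.0227. The counts of SPP1 and LOX, 2 to 121 and 5 to 36 reads, limit what could be detected in them.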
